A study of Homo sapiens with 8 samples.

Results

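Replication-coupled chromatin and methylation genes encode proteins that rebuild chromatin and restore its inherited marks behind the replication fork. The set described here holds 10 genes, taken as the rows of the deposited HT29 gene table that carry their names, and all 10 were found among the 38148 genes of the table. They are the histone chaperone genes CHAF1A, CHAF1B, ASF1A and ASF1B, the maintenance methylation genes DNMT1, UHRF1 and HELLS, and the genes of the Polycomb repressive complex 2 (PRC2) core, EZH2, EED and SUZ12. All 10 were also among the 14219 genes that passed the filter on low values, a mean over the 8 libraries of 1 RPM or more, RPM being reads on the deposited scale (scaled to the largest library) per 1000000 reads of that library, and no member was lost.

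The HT29 line comes from a human colorectal cancer with mutant BRAF, and selumetinib inhibits the kinase MEK, which acts below BRAF in the ERK pathway. Cells were left untreated or grown with 1 µM selumetinib for 24 h, then fixed with glyoxal, permeabilised, stained with an antibody against cyclin B1 (CCNB1, a mitotic cyclin that builds up late in the cell cycle) and separated by flow sorting into a CCNB1-negative and a CCNB1-positive fraction. This gave 4 groups of 2 mRNA-seq libraries, with fixation, staining and sorting shared by every group. The labels do not say whether replicates came from separate cultures, so p-values measure the spread between these libraries, which may be technical. In sorted bulk samples, fewer cells of a type and less RNA per cell cannot be told apart.

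The 2 sets of labels contradict each other. In each of the 8 libraries the title and the description disagree on both the treatment and the fraction, and the label of the growth medium goes with the title. The descriptions are the column names of the deposited table and were used for the groups throughout. By these, CCNB1 mRNA was higher in the fraction named CCNB1-positive, by 2.09 (log2) in untreated and 5.08 in treated cells, and all 6 genes listed as targets of MEK signalling fell with treatment in both fractions, with log2 changes between -3.10 and -1.13 for CCNB1-negative and between -2.34 and -0.71 for CCNB1-positive cells. By the titles, CCNB1 mRNA would be lower in the fraction named CCNB1-positive, and all 6 MEK target genes would rise with the MEK inhibitor. These values go with the descriptions and not with the titles. Each response below would by the titles have the opposite sign, and each fraction the other name.

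Libraries held 12696860 to 23916160 reads on genes, and a member had between 81 and 4893 reads in a library. Values are given as log2 of reads scaled to the largest library, on which 1 RPM is 4.58 and a difference of 1 is 2-fold. The deposited scale factors ran from 1 to 1.70 and did not follow the reads on genes. Treated CCNB1-positive replicate 2, with 14109500 reads, had a factor of 1.575. Treated CCNB1-negative replicate 1, with only 13987432, had 1.569. RPM is therefore not per 1000000 reads on genes of each library. Replicates differed by more than sampling noise in every group (chi-square per gene 15.6 to 30.2). The 7 markers of colorectal epithelium had reads in every library (summed level 9982 to 10960 RPM untreated, 4120 to 7752 RPM treated). Not all 7 followed this sum. With treatment 3 were called lower and 2 higher in CCNB1-negative cells, and 1 lower and 2 higher in CCNB1-positive cells. A further 5 markers of blood, endothelial, stromal and liver cells (PTPRC, PECAM1, COL1A1, COL3A1 and ALB) summed to 1.16 to 2.06 RPM untreated and 2.55 to 5.55 RPM treated. Of these 5, COL1A1 alone passed the filter on low values, and it rose with treatment in both fractions (log2 changes 1.81 and 2.19, limma adjusted p = 0.0043 and 0.00149), while COL3A1 and ALB had at most 1 read in a library. The part of these markers in the results was not tested. Sums over 5 G1/S genes were 372 to 391 RPM in untreated CCNB1-negative, 118 to 120 in untreated CCNB1-positive, 24.5 to 28.8 in treated CCNB1-negative and 52.5 to 58.7 in treated CCNB1-positive cells. For 5 G2/M genes these ranges were 465 to 474, 1888 to 2024, 45.2 to 63.1 and 1025 to 1136 RPM. Both sums were lower in treated than in untreated cells of the same fraction and higher in treated CCNB1-positive than in treated CCNB1-negative cells. Not every G1/S gene followed its sum. Between treated fractions 3 of the 5 were called higher, and CCNE1 had a log2 difference of -0.26 without a call. With treatment in CCNB1-positive cells 4 were called lower, and CCNE2 changed by 0.08 without a call. Between untreated fractions the G1/S sum was lower and the G2/M sum higher in CCNB1-positive cells. Their part in the members' differences was not tested.

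As background, the CAF-1 complex, with the subunits encoded by CHAF1A and CHAF1B, deposits new histones on replicated DNA through its contact with the sliding clamp PCNA, and the ASF1 proteins hand histones to it. UHRF1 recognises DNA that carries methyl groups on the parental strand alone and recruits DNMT1, which copies the pattern to the new strand, while the remodeller HELLS opens nucleosomal DNA for methylation. PRC2 methylates histone H3 at lysine 27, a silencing mark that is diluted at each replication. EZH2 is its catalytic subunit, EED binds the existing mark and SUZ12 holds the complex together.

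Promoter sequences were read from RefSeq, and 4 are shown because they belong to a pair of members each of which was the gene nearest to the other in its levels (CHAF1A and UHRF1), to a member that differed between the untreated fractions (HELLS) and to the member with the largest difference between the treated fractions (ASF1B). Each is the 150 bases before the annotated start on GRCh38.p14, 5′ to 3′ on the strand of the gene. Capitals mark the letters TTCCCGC, also TTCGCGC, also TTGCCGC and also TTGGCGC (like the sites of E2F factors, which drive genes of S phase), CCAAT, and TTTGAA (like the cell cycle homology region of late cell cycle genes), on either strand. In CHAF1A a CCAAT match and a TTGGCGC match share letters. UHRF1 has several annotated starts in RefSeq, and the first of these is shown. The RefSeq starts used for UHRF1 and HELLS lie downstream of the starts given in the deposited table (4903080 and 94501434).
CHAF1A, chr19:4402490-4402639, + strand: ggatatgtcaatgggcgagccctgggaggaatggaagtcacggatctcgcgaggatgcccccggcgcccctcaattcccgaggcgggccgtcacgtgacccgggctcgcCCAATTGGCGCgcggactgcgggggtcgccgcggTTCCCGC
UHRF1, chr19:4909351-4909500, + strand: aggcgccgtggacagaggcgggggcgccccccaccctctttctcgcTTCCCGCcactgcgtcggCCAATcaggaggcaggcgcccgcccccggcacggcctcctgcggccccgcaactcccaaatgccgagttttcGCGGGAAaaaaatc
HELLS, chr10:94545638-94545787, + strand: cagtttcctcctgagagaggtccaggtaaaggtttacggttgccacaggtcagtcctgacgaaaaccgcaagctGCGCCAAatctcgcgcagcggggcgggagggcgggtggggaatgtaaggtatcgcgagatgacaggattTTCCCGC
ASF1B, chr19:14136590-14136739, - strand: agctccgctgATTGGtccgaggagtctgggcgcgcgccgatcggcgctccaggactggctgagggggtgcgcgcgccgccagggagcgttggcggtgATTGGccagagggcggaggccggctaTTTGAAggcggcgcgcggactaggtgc

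Over the full windows, 250 bases before to 50 after each start, an E2F-like match was present for 7 of the 10 members (CHAF1A, CHAF1B, DNMT1, UHRF1, HELLS, EZH2 and SUZ12) and in 8 of their 13 windows, against 13% of 35116 windows of all genes. CCAAT was present for 8 members and in 9 of their 13 windows, against 34.6% of all windows. TTTGAA was present for ASF1B and SUZ12 and in 2 of the 13 windows, near its share of 15.2% of all windows. The letters were chosen after the members were known and are a description of the sequence, and a match is not evidence that a factor binds there.

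Under selumetinib, all 10 members fell in CCNB1-negative cells, from 10.8-fold for ASF1B to 1.51-fold for SUZ12, and 6 fell in CCNB1-positive cells, by 1.65-fold to 2-fold. Across all genes tested, 35.8% were lower in the former and 27.3% in the latter fraction (limma, Benjamini-Hochberg adjusted p under 0.05). The members' median log2 change was -2.05 and -0.75 in these fractions, beside 0.05 and 0.17 over all genes. In the plot of levels by library, the treated CCNB1-negative libraries are the lowest for every member, as they are for 26.8% of all genes tested.

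**Figure D1:**
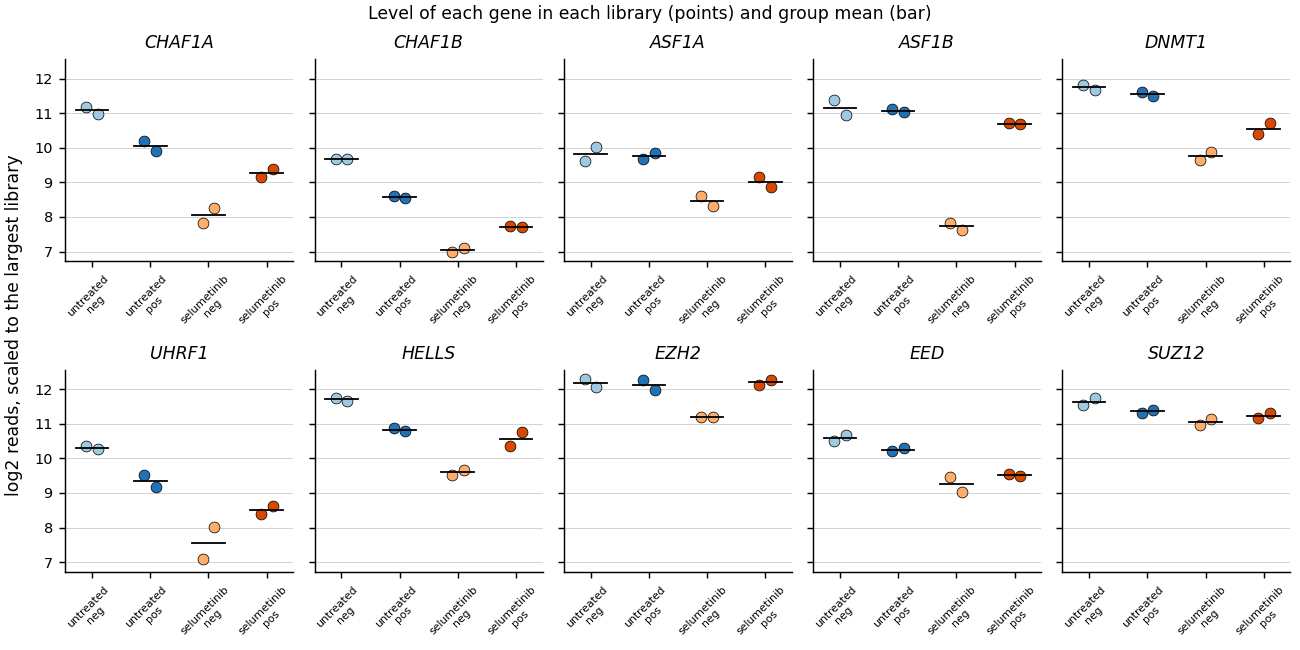
Level of each member in each library, as log2 of reads scaled to the largest library (vertical axis), for the 4 groups (horizontal axis, neg and pos for CCNB1-negative and CCNB1-positive). Points are libraries and bars are means of 2. For all 10 genes both treated CCNB1-negative libraries lie below every other library.

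In untreated cells 3 members, CHAF1A, CHAF1B and HELLS, were lower in CCNB1-positive than in CCNB1-negative cells, where 1.51% of all genes were lower. In treated cells 8 members, all but EED and SUZ12, were higher in CCNB1-positive cells, where 13.8% of all genes were higher. The response itself differed between the fractions for 7 members, each with a smaller fall or no fall in CCNB1-positive cells, and 4.99% of all genes differed in that direction. These comparisons share libraries, so they are not independent of each other.

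The split of calls over all genes depended on scaling. In CCNB1-negative cells 5438 genes rose and 5092 fell under treatment, or 4914 and 5445 with quantile normalization and 6000 and 4512 with voom. In CCNB1-positive cells 5400 genes rose and 3888 fell under treatment, or 3978 and 4392 with quantile normalization and 6055 and 3463 with voom. CCNB1-positive cells had 194 genes higher and 214 lower when untreated (158 and 86 with quantile normalization) and 1958 higher and 1119 lower when treated (2008 and 2182, or 1724 and 1721 with voom). The responses differed upwards for 709 and downwards for 49 genes (753 and 309 with quantile normalization). Quantile normalization shifted the median change of all genes by -0.13 for the response of CCNB1-negative and by -0.24 for that of CCNB1-positive cells, and relative to that median all 10 members were still lower in CCNB1-negative cells. Voom, which took the reads on genes as the size of each library, shifted the same medians the other way, by 0.14 and 0.11.

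Among the chaperones, CHAF1A (ENSG00000167670, GRCh38 chromosome 19, 4402640 to 4445018), the large subunit of CAF-1, had log2 values of 11.19 and 10.98 in untreated CCNB1-negative, 10.21 and 9.90 in untreated CCNB1-positive, 7.83 and 8.27 in treated CCNB1-negative and 9.14 and 9.38 in treated CCNB1-positive libraries. The 4 groups did not overlap and stood in the order untreated CCNB1-negative, untreated CCNB1-positive, treated CCNB1-positive, treated CCNB1-negative. With 2 libraries per group, separation of a pair of groups was common, here and for the members below. Treatment lowered 41.9% of all genes without overlap for the CCNB1-negative fraction, and 37.1% for the other. CCNB1-positive libraries were lower without overlap for 28% of all genes when untreated, and higher for 33% when treated. The share of genes with the full order was not counted. With treatment CHAF1A fell 8.2-fold in CCNB1-negative cells (log2 change -3.04, standard error 0.19, limma adjusted p = 1.11e-08) and 1.74-fold in CCNB1-positive cells (-0.80, limma adjusted p = 0.00188). These responses differed by 2.24 (limma adjusted p = 7.09e-05). Untreated CCNB1-positive cells had 2.04-fold less than CCNB1-negative cells (limma adjusted p = 0.00604), a call lost without untreated CCNB1-negative replicate 1 (adjusted p = 0.064) or untreated CCNB1-positive replicate 2 (adjusted p = 0.085), whereas treated CCNB1-positive cells had 2.31-fold more (limma adjusted p = 0.000441).

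CHAF1B (ENSG00000159259, chromosome 21, 36385392 to 36419015), the middle subunit of CAF-1, had log2 values of 9.69 and 9.67 in untreated CCNB1-negative, 8.60 and 8.54 in untreated CCNB1-positive, 6.99 and 7.10 in treated CCNB1-negative and 7.73 and 7.70 in treated CCNB1-positive libraries. Its groups had the same order as those of CHAF1A and again did not overlap. It fell 6.22-fold in CCNB1-negative (limma adjusted p = 2.18e-08) and 1.8-fold in CCNB1-positive cells (limma adjusted p = 0.000758), and these responses differed by 1.79 on the log2 scale (limma adjusted p = 0.000319). The 2.17-fold lower level in untreated CCNB1-positive cells passed the test (limma adjusted p = 0.00182). So did the 1.59-fold higher level in treated CCNB1-positive cells (limma adjusted p = 0.0154), which lost its call without either treated CCNB1-positive library (adjusted p = 0.096 and 0.068), with voom or in a fit of these groups alone.

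ASF1B (ENSG00000105011, chromosome 19, 14119512 to 14136613) encodes the ASF1 chaperone tied to proliferation. Its log2 values were 11.37 and 10.96 in untreated CCNB1-negative, 11.11 and 11.04 in untreated CCNB1-positive, 7.84 and 7.63 in treated CCNB1-negative and 10.72 and 10.67 in treated CCNB1-positive libraries. Both untreated groups overlapped (difference -0.09, 95% interval from limma -0.44 to 0.26, adjusted p = 0.90), and the treated CCNB1-negative libraries stood apart from the other 6. Reads there were 146 and 117, against 1038 or more in every other library. The fall was 10.8-fold in CCNB1-negative cells (log2 change -3.43, limma adjusted p = 1.76e-09), and ASF1B was 7.8-fold higher in treated CCNB1-positive than in treated CCNB1-negative cells (limma adjusted p = 8.1e-09). In CCNB1-positive cells the treated libraries lay below the untreated ones without overlap, as for 37.1% of all genes tested. The change of -0.38 there (95% interval -0.73 to -0.03) did not pass the adjusted threshold (limma adjusted p = 0.0546). It passed in a fit of these groups alone (adjusted p = 0.016) and when any 1 of the 4 CCNB1-negative libraries was left out (adjusted p = 0.040 to 0.046). The difference of responses, 3.05, was the largest of the members (limma adjusted p = 4.12e-06).

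ASF1A (ENSG00000111875, chromosome 6, 118894152 to 118909171), the other ASF1 chaperone, which also serves histone exchange outside S phase, varied less. Its log2 values were 9.63 and 10.01 in untreated CCNB1-negative, 9.68 and 9.86 in untreated CCNB1-positive, 8.59 and 8.33 in treated CCNB1-negative and 9.14 and 8.87 in treated CCNB1-positive libraries. The untreated groups overlapped and every treated library lay below every untreated one. ASF1A fell 2.56-fold in CCNB1-negative (limma adjusted p = 1.32e-05) and 1.7-fold in CCNB1-positive cells (limma adjusted p = 0.00228), and the difference between these responses did not pass the test (0.59, standard error 0.26, limma adjusted p = 0.217). This difference passed with same-numbered libraries of the fractions blocked as pairs (limma adjusted p = 0.0117). Treated CCNB1-positive cells had 1.46-fold more than treated CCNB1-negative cells at limma adjusted p = 0.0473, a call lost with quantile normalization, voom, no filter, a fit of these groups alone or leaving out treated CCNB1-negative replicate 2, either treated CCNB1-positive library or either untreated CCNB1-positive library (adjusted p between 0.054 and 0.29). ASF1A overlaps MCM9 on the opposite strand and CHAF1A overlaps UBXN6 likewise, while CHAF1B overlaps MORC3 on its own strand. How the counting treated strand is not given in the sources used here.

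**Figure D2:**
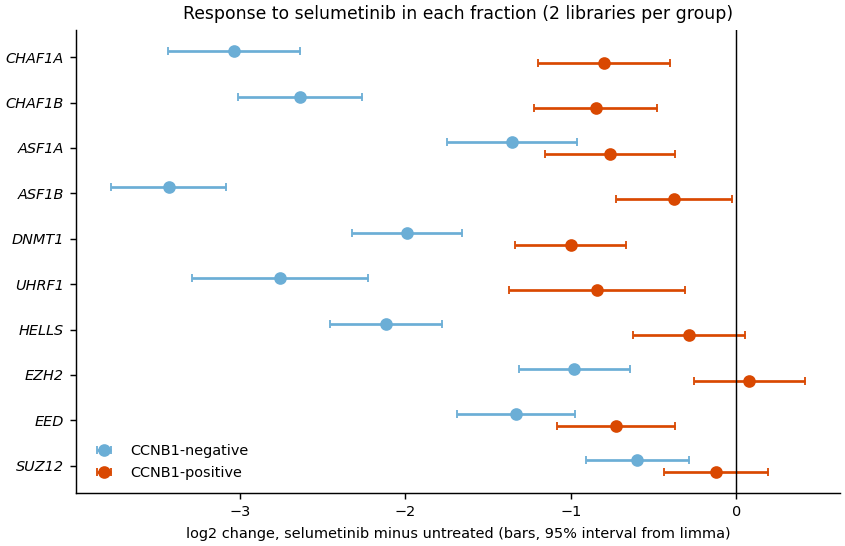
Log2 change with selumetinib (horizontal axis) for each member (vertical axis) in CCNB1-negative (blue) and CCNB1-positive cells (orange), with 95% intervals from limma and 2 libraries per group. Every interval in CCNB1-negative cells lies below 0, and those of HELLS, EZH2 and SUZ12 in CCNB1-positive cells include 0.

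In the maintenance methylation group, DNMT1 (ENSG00000130816, chromosome 19, 10133345 to 10231286), the enzyme that copies CpG methylation, had log2 values of 11.83 and 11.66 in untreated CCNB1-negative, 11.62 and 11.49 in untreated CCNB1-positive, 9.64 and 9.87 in treated CCNB1-negative and 10.40 and 10.71 in treated CCNB1-positive libraries. All 4 treated libraries were below all 4 untreated ones. It fell 3.97-fold in CCNB1-negative (log2 change -1.99, limma adjusted p = 9.23e-08) and 2-fold in CCNB1-positive cells (limma adjusted p = 8.34e-05), the latter being the largest fall of a member in that fraction on the deposited scale, though CHAF1A, CHAF1B, ASF1A and UHRF1 fell more with quantile normalization. The difference of 0.99 between these responses passed the test (limma adjusted p = 0.0159) and lost its call without untreated CCNB1-negative replicate 1, untreated CCNB1-positive replicate 2 or treated CCNB1-positive replicate 2 (adjusted p = 0.054, 0.071 and 0.096). DNMT1 was 1.74-fold higher in treated CCNB1-positive than CCNB1-negative cells (limma adjusted p = 0.00288), while the untreated fractions differed by -0.19 (limma adjusted p = 0.705). It overlaps S1PR2 on the same strand.

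UHRF1 (ENSG00000276043, chromosome 19, 4903080 to 4962154), the reader of hemimethylated DNA, had log2 values of 10.35 and 10.27 in untreated CCNB1-negative, 9.51 and 9.18 in untreated CCNB1-positive, 7.09 and 8.01 in treated CCNB1-negative and 8.38 and 8.63 in treated CCNB1-positive libraries. The treated CCNB1-negative libraries, with 87 and 152 reads, were farther apart than the libraries of any other group and member. Its groups, like those of CHAF1A, did not overlap and had the same order. UHRF1 fell 6.76-fold in CCNB1-negative cells (limma adjusted p = 2.98e-07) and 1.79-fold in CCNB1-positive cells (limma adjusted p = 0.00859), where the call was lost without untreated or treated CCNB1-positive replicate 1 (adjusted p = 0.062 and 0.060). The responses differed by 1.92 on the log2 scale (limma adjusted p = 0.00367). In treated cells the CCNB1-positive level was 1.94-fold higher (limma adjusted p = 0.0151), and the log2 difference of 0.96 was 0.50 without treated CCNB1-negative replicate 1 (adjusted p = 0.080) and 0.83 without treated CCNB1-positive replicate 2 (adjusted p = 0.093). The lower level in untreated CCNB1-positive cells, -0.96, fell just short (limma adjusted p = 0.0553) and passed under several alternatives, among them voom (adjusted p = 0.0098).

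HELLS (ENSG00000119969, chromosome 10, 94501434 to 94613905), a chromatin remodeller of the SNF2 family, had log2 values of 11.75 and 11.67 in untreated CCNB1-negative, 10.88 and 10.79 in untreated CCNB1-positive, 9.53 and 9.66 in treated CCNB1-negative and 10.35 and 10.75 in treated CCNB1-positive libraries. Treated and untreated CCNB1-positive cells were close neighbours, with a log2 change of -0.28 (95% interval -0.62 to 0.06, limma adjusted p = 0.128) that passed, among the alternatives run, only without treated CCNB1-positive replicate 2 (-0.49, adjusted p = 0.039). In CCNB1-negative cells HELLS fell 4.34-fold (limma adjusted p = 5.96e-08), and the responses differed by 1.83 (limma adjusted p = 9.86e-05). It was 1.84-fold lower in untreated CCNB1-positive than CCNB1-negative cells (limma adjusted p = 0.00553, or 0.068 without untreated CCNB1-positive replicate 2) and 1.94-fold higher in treated CCNB1-positive cells (limma adjusted p = 0.000814).

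In CCNB1-negative cells the PRC2 genes had the 3 smallest falls, that of EED close to that of ASF1A. The catalytic subunit gene EZH2 (ENSG00000106462, chromosome 7, 148807383 to 148884321) had log2 values of 12.30 and 12.05 in untreated CCNB1-negative, 12.26 and 11.97 in untreated CCNB1-positive, 11.19 and 11.20 in treated CCNB1-negative and 12.11 and 12.28 in treated CCNB1-positive libraries. Treated CCNB1-positive libraries thus overlapped both untreated groups, and the treated CCNB1-negative ones were alone in lying lower. EZH2 fell 1.97-fold in CCNB1-negative cells (limma adjusted p = 6.09e-05), while CCNB1-positive cells showed a change of 0.08 (95% interval -0.25 to 0.41, limma adjusted p = 0.664). With quantile normalization that change became 0.42 and passed the test (adjusted p = 0.038), or 0.49 relative to the median of all genes, against -0.09 relative to it on the deposited scale, so its change was above 0 on both scales, while its call and its place beside the median of all genes depend on scaling. Treated CCNB1-positive cells had 2-fold more EZH2 than treated CCNB1-negative cells (limma adjusted p = 0.000513), and the responses differed by 1.06 (limma adjusted p = 0.00975), a call lost without untreated or treated CCNB1-positive replicate 2 (adjusted p = 0.068 and 0.060).

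EED, the reader of the mark (ENSG00000074266, chromosome 11, 86244753 to 86278813) had log2 values of 10.50 and 10.67 in untreated CCNB1-negative, 10.21 and 10.31 in untreated CCNB1-positive, 9.47 and 9.04 in treated CCNB1-negative and 9.56 and 9.50 in treated CCNB1-positive libraries. It fell in both fractions, 2.52-fold in CCNB1-negative (limma adjusted p = 6.23e-06) and 1.65-fold in CCNB1-positive cells (limma adjusted p = 0.00166). The difference of its responses, 0.61, did not pass (limma adjusted p = 0.163), nor did the differences between fractions of -0.33 untreated (adjusted p = 0.414) and 0.27 treated (adjusted p = 0.247). With same-numbered libraries of the fractions blocked as pairs, the difference of responses (limma adjusted p = 0.00815) and that between treated fractions (limma adjusted p = 0.0486) passed. Without treated CCNB1-negative replicate 1 the difference of responses was 0.82 (adjusted p = 0.027) and that between treated fractions 0.49 (adjusted p = 0.038).

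SUZ12, the scaffold subunit gene (ENSG00000178691, chromosome 17, 31937007 to 32001038) had log2 values of 11.53 and 11.75 in untreated CCNB1-negative, 11.31 and 11.41 in untreated CCNB1-positive, 10.96 and 11.13 in treated CCNB1-negative and 11.18 and 11.30 in treated CCNB1-positive libraries. All of them lay within a log2 range of less than 1. It fell 1.51-fold in CCNB1-negative cells (limma adjusted p = 0.00204), whereas the value of -0.12 for CCNB1-positive cells (95% interval -0.44 to 0.19, limma adjusted p = 0.473) did not pass and was 0.06 with quantile normalization. Neither difference between fractions nor the difference of responses (0.47, limma adjusted p = 0.216) passed. With same-numbered libraries of the fractions blocked as pairs, the difference between untreated fractions (limma adjusted p = 0.0498) and the difference of responses (limma adjusted p = 0.0117) passed. Pseudogene copies of EZH2, EED and SUZ12 are annotated, and whether the counting split reads with them is not given in the sources used here.

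**Figure D3:**
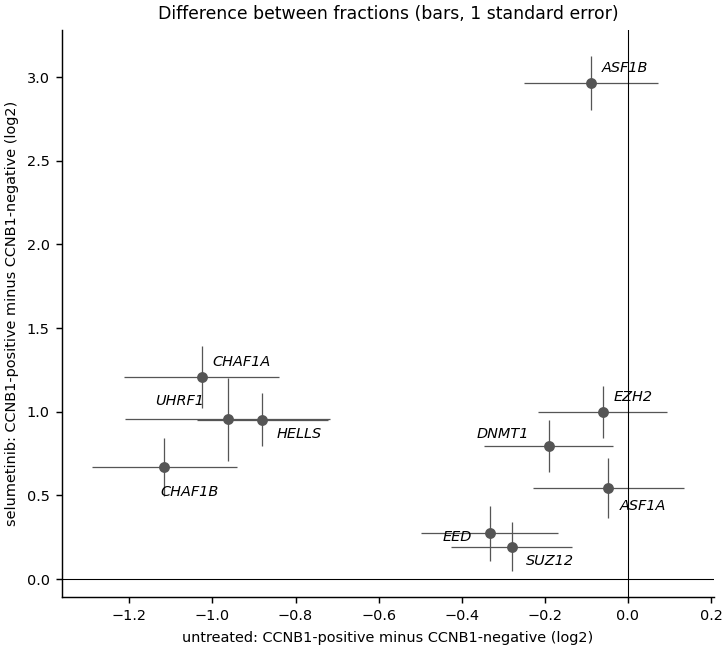
Difference between CCNB1-positive and CCNB1-negative cells (log2) in untreated cells (horizontal axis) and with selumetinib (vertical axis) for each member, with bars of 1 standard error from limma. CHAF1A, CHAF1B, UHRF1 and HELLS lie near -1 untreated and above 0 treated, and ASF1B lies near 0 untreated and near 3 treated.

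Ratios between related genes within a library do not change when the whole library is multiplied by 1 factor, but can change with quantile normalization. Levels were set per kilobase of the canonical transcript of each gene. ASF1B exceeded ASF1A by 2.8 to 5.04 times in all 6 libraries other than the treated CCNB1-negative ones, where the ratios were 0.855 and 0.887, so the order of the paralogs was turned there. EZH2 exceeded its paralog EZH1 by 16 to 19.9 times in untreated cells, by 3.45 and 3.73 times in treated CCNB1-negative and by 7.71 and 9.13 times in treated CCNB1-positive cells. EZH1, which forms a less active PRC2 and is common in non-dividing cells, rose with treatment in CCNB1-negative (log2 change 1.47, limma adjusted p = 4.06e-06) and CCNB1-positive cells (1.06, limma adjusted p = 0.000129), so the EZH2 to EZH1 ratio was lower in treated CCNB1-positive cells, in which EZH2 itself did not pass the test.

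The ratio of DNMT1 to DNMT3A, which encodes a de novo methyltransferase, was 23.2 to 31.7 in untreated libraries, 1.66 and 1.87 in treated CCNB1-negative and 3.8 and 5.28 in treated CCNB1-positive libraries. DNMT3A rose in CCNB1-negative (log2 change 2.09, limma adjusted p = 4.82e-07) and CCNB1-positive cells (1.52, limma adjusted p = 1.82e-05). The other de novo enzyme, DNMT3B, rose by 1.62 (limma adjusted p = 0.00158) and 1.44 (limma adjusted p = 0.00468), and DNMT1 exceeded it by 15.6 to 81.5 times in untreated and 2.6 to 4.88 times in treated libraries. DNMT3B had 26 to 381 reads in a library, and the ratio of 81.5 rests on 26. The ratio of UHRF1 to UHRF2 was 0.685 to 1.07 in untreated and 0.11 to 0.307 in treated libraries. UHRF2 changed by 0.14 in CCNB1-negative cells (limma adjusted p = 0.424) and rose by 0.43 in CCNB1-positive cells (limma adjusted p = 0.0222). With lengths summed over all exons, EZH2 exceeded EZH1 by 5.93 to 7.38 times in untreated, 1.28 and 1.39 times in treated CCNB1-negative and 2.87 and 3.39 times in treated CCNB1-positive libraries. With those lengths, DNMT1 lay below DNMT3A in treated CCNB1-negative cells (0.831 and 0.939) and UHRF1 above UHRF2 in every untreated library (1.44 to 2.24), so those orders depend on the length used, while the differences between groups do not.

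CHAF1A exceeded CHAF1B, its partner in CAF-1, by 2.38 to 4.24 times in every library, and both treated CCNB1-negative libraries had the lowest ratios (2.38 and 2.98). Their log2 changes in CCNB1-negative cells were -3.04 for CHAF1A and -2.64 for CHAF1B on the deposited scale. With quantile normalization these were -3.14 and -3.10, so the lower ratio depends on scaling. Within PRC2, EZH2 exceeded EED by 2.05 to 5.41 times and SUZ12 by 1.78 to 3.34 times per kilobase. With lengths summed over all exons the ratio to SUZ12 was 0.638 to 1.2, so the order of EZH2 and SUZ12 depends on the length used.

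**Figure D4:**
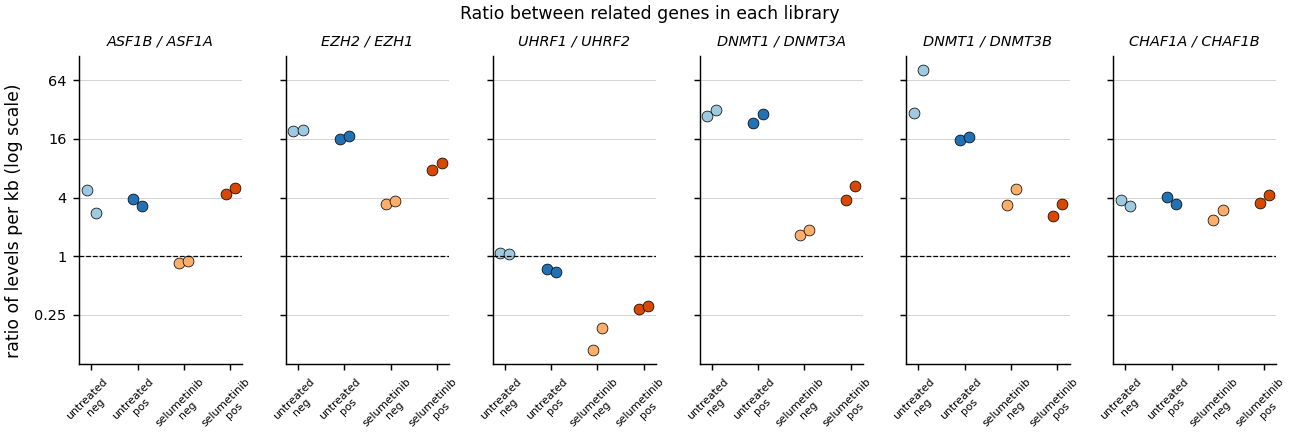
Ratio of levels per kilobase of canonical transcript between related genes (vertical axis, log scale) in each library (points) of the 4 groups (horizontal axis), with a dashed line at 1. ASF1B over ASF1A lies below 1 in the treated CCNB1-negative libraries alone, and the ratios of EZH2 to EZH1 and of DNMT1 to DNMT3A are lower in every treated than in every untreated library.

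Other genes of the same pathways were taken from 4 lists. Of 20 further chaperone and histone supply genes, 15 fell and 4 rose with treatment in CCNB1-negative cells (median log2 change -1.37), and 13 fell and 3 rose in CCNB1-positive cells (median -0.60). SSRP1, a subunit of the FACT chaperone, fell most in CCNB1-negative cells (-2.43, limma adjusted p = 2.86e-08), the importin gene IPO4 fell most in CCNB1-positive cells (-1.86), and the kinase gene TLK2 (1.04) and the remodeller gene ATRX (0.85) rose most in these fractions. Over all genes, 38.2% were higher in the CCNB1-negative and 38% in the CCNB1-positive response, beside the shares that were lower given above.

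Genes of DNA methylation and its removal were split, with 6 of 15 lower and 5 higher in CCNB1-negative and 5 lower and 6 higher in CCNB1-positive cells (medians -0.13 and -0.19). The extremes were CDCA7, which works with HELLS and fell by log2 changes of -1.92 and -1.34, and DNMT3A. Of 25 further Polycomb genes, 8 fell and 8 rose in CCNB1-negative cells, and 6 fell and 8 rose in CCNB1-positive cells (medians 0.01 and 0.06). EPOP, a PRC2 accessory gene, fell most (-2.66 and -2.29), and KDM6A, a demethylase that removes the PRC2 mark, rose most (1.72 and 1.35). Among 12 genes of heterochromatin and H4K20 methylation, 7 fell and 4 rose in CCNB1-negative cells, and 5 fell and 3 rose in CCNB1-positive cells (medians -1.02 and -0.25), with the H3K9 methyltransferase genes SUV39H1 (-2.97) and SUV39H2 (-1.18) falling most in these fractions and KMT5C rising most (1.39 and 1.95). RBBP4 and RBBP7, which encode histone-binding proteins, stand in both the chaperone and the Polycomb lists.

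**Figure D5:**
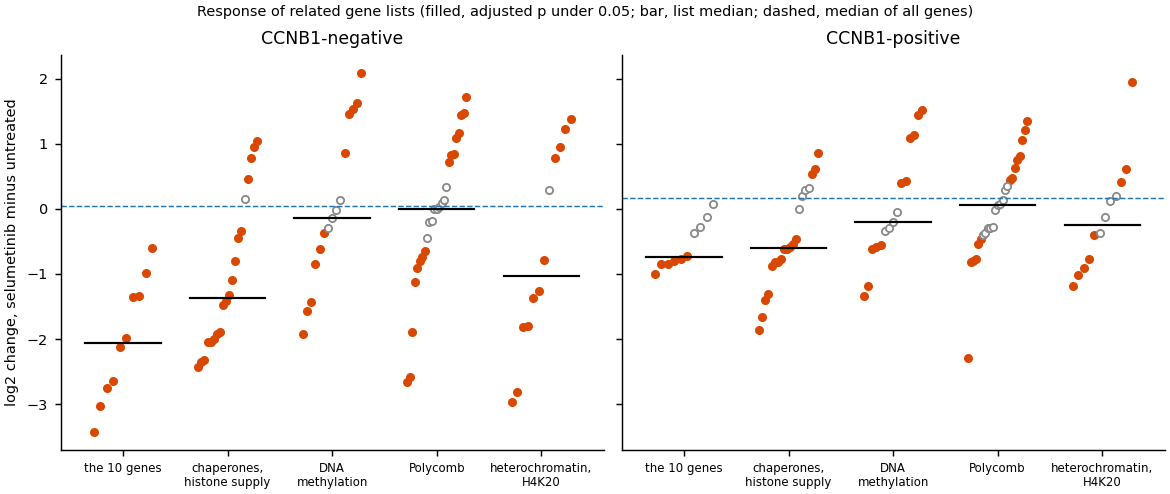
Log2 change with selumetinib (vertical axis) for the 10 members and the 4 lists of related genes (horizontal axis) in CCNB1-negative (left) and CCNB1-positive cells (right). Filled points passed limma at an adjusted p under 0.05, bars are list medians and the dashed line is the median of all genes (0.05 and 0.17). The Polycomb list has a median near 0, whereas the 10 members have medians of -2.05 and -0.75.

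By the root mean square difference of log2 values centred on each gene, over 8 libraries and 10118 genes with at least 10 RPM, the gene most like CHAF1A was UHRF1 and the gene most like UHRF1 was CHAF1A (0.17), followed by RFC4 (0.20) and AL138759.1 (0.20). CHAF1B was nearest to SLBP (0.19) and DLGAP1-AS2 (0.22), ASF1B to TK1 (0.17) and RRM2 (0.19), and HELLS to ZNF367 (0.14) and ATAD2 (0.17). The flatter members had closer neighbours, which were AP000944.2 (0.07) and POLD1 (0.09) for DNMT1, PSMG2 and SRP9 (0.06 each) for ASF1A, NCBP2AS2 and SMNDC1 (0.06 each) for EED, POLN and ENO2 (0.12 each) for EZH2, and EGLN3 and UBE3A (0.07 each) for SUZ12. CHAF1A and CHAF1B differed by 0.25, and ASF1A and ASF1B by 0.98. These distances describe 8 libraries that share their scaling.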

How the data were processed

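Poly(A) RNA from 8 sorted HT29 samples was sequenced, and per the labels and the study's methods the authors used Trim Galore 0.5.0 for trimming, aligned reads to GRCh38 with HISAT2 2.1.0 and counted reads per gene in SeqMonk. The deposited values are log2 read counts scaled by the authors to the largest library, with a gene without reads set to 0.9 reads before scaling. All values of genes with reads (100%) gave whole reads when the scaling was undone, which gave the depth of each library. Whole meant within 0.05 reads or, for large counts, within the rounding of the stored values. The annotation release and strand setting are not given in the sources used here, and 99.3% of gene IDs were in GENCODE 44. The labels give RPMI-1640 as the medium, and the study's methods name McCoy's 5A for HT29.

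Genes whose mean reached 1 RPM (log2 value 4.58) were fitted with limma 3.58.1 in R 4.3.3, with a mean-variance trend and all 4 groups in 1 model without a block. Contrasts were treated minus untreated in each fraction, CCNB1-positive minus CCNB1-negative in each treatment, and the difference of responses. The Benjamini-Hochberg adjustment ran over 14219 genes, and an adjusted p under 0.05 was called. Values on the log2 scale were used without a further pseudocount. The fit was tested on simulated data. All 10 members were named, and of each further list the genes with the largest rise and fall in each fraction, plus paralogs. Genes of like pattern were the 2 nearest. Members and lists were chosen with earlier results of these data known. Alternatives were quantile normalization, other filters, pseudocounts and thresholds, voom on recovered reads, fits of fewer groups, a replicate block, leaving out each library and groups by title. Intervals cover the spread between libraries as limma estimates it.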

Additional observations from a re-analysis of the deposited data

Results flagged for a closer look

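Responses to selumetinib that differed between the fractions by the interaction term of limma were singled out for 7 members. The response in CCNB1-positive minus that in CCNB1-negative cells, on the log2 scale, was 3.05 for ASF1B, 2.24 for CHAF1A, 1.92 for UHRF1, 1.83 for HELLS, 1.79 for CHAF1B, 1.06 for EZH2 and 0.99 for DNMT1. All 7 fell in CCNB1-negative cells. In CCNB1-positive cells the change was 0.08 for EZH2, and those of EZH2, HELLS and ASF1B did not pass the test. The sums of G1/S and G2/M genes moved between the same groups, and their part in these differences was not tested.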

How the results depend on the processing

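Of 920 member values under alternatives that kept the groups, 853 stayed on their side of the threshold, 44 lost and 23 gained a call, and none changed direction with a call. All 10 falls in CCNB1-negative cells were called under every alternative other than a required 2-fold change and the titles described last. With 2-fold required, 6758, 4874, 255 and 908 genes were called in the responses of CCNB1-negative and CCNB1-positive cells and in the untreated and treated fraction comparisons, and 1 member in the CCNB1-positive response and 2 in the treated fraction comparison. At an adjusted p under 0.01, 217, 1338 and 426 genes were called in the untreated and treated fraction comparisons and the difference of responses, and 5 members between treated fractions. Quantile normalization called 244 genes between untreated fractions.

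Leaving out each library in turn, 224 to 455 genes and 1 to 4 members were called between untreated fractions, 1156 to 4279 genes and 5 to 8 members between treated fractions, and 489 to 1806 genes and 5 to 8 members in the difference of responses. The counts lay lowest without untreated CCNB1-positive replicate 2 (224 genes), treated CCNB1-negative replicate 2 (1156) and untreated CCNB1-negative replicate 2 (489). They lay highest without treated CCNB1-negative replicate 1. The cause was not tested.

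The labels do not say whether same-numbered libraries share a culture, which was not tested, and the main fit did not pair these libraries. Their deviations from group means correlated at 0.352 (untreated fractions) and 0.428 (treated fractions) and between -0.088 and 0.082 otherwise. With a replicate block for the pairs of fractions, 1923, 6671 and 3850 genes were called between untreated fractions, between treated fractions and in the difference of responses, and 5, 9 and 10 members. The calls gained were UHRF1 and SUZ12 untreated, EED treated, and ASF1A, EED and SUZ12 in the difference of responses (limma adjusted p = 0.0117, 0.00815 and 0.0117). With the replicate number as a block, 10, 7, 3, 8 and 7 members were called in the 5 comparisons. Of 14219 genes tested, 5265 and 4097 were then called lower with treatment in CCNB1-negative and CCNB1-positive cells and 273 in untreated CCNB1-positive cells. Called higher were 2327 genes in treated CCNB1-positive cells and 814 in the difference of responses.

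By the titles in place of the descriptions, 0 members were lower and 6 higher with treatment in CCNB1-negative cells, 0 lower and 10 higher in CCNB1-positive cells, 8 lower in untreated CCNB1-positive cells and 3 higher in treated CCNB1-positive cells. In the same order, the shares of all genes tested would be 38%, 27.3%, 38.2%, 35.8%, 13.8% and 1.51%. The limits are 2 libraries per group, contradicting labels, and levels of RNA only.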
